A study of Mus musculus with 12 samples.

Results

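The genes described here are the semaphorins and their receptors, the plexins and neuropilins: 31 genes, all measured, of 21408 genes that had a probe set of their own on the arrays. They comprise 20 semaphorins, 9 plexins and 2 neuropilins, each represented by 1 probe set whose platform annotation names that gene alone. The family was chosen by measured values, the expression differences between TUDCA and vehicle seen in an earlier analysis of these arrays, so its differences, adjusted p-values and calls in that comparison are given as a description and are no independent evidence. Within the family no gene was picked or dropped by its value, and no filter on low values was applied.

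All 12 arrays carry RNA of small intestine from wild type BALB/c recipients that had been irradiated over the whole body and injected with bone marrow and T cells of C57BL/6N donors, to study acute graft-versus-host disease, an attack of donor T cells on tissues such as the gut. The tissue was taken on day 14 after transplantation. TUDCA, a taurine-conjugated bile acid, was injected into the peritoneum every day at 200 mg/kg in 6 mice, and 6 mice received 200 µl of vehicle in the same way (TUDCA was dissolved in water for injection). That the 12 samples are separate mice is inferred from their numbers in the labels. No group without transplantation or without donor T cells was analysed here, so the values speak only of treated against untreated transplant recipients, and in bulk tissue fewer cells of a type and less RNA per cell cannot be told apart.

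Semaphorins are secreted or membrane-bound guidance proteins, first known for repelling growing axons. They act mainly through plexins, large transmembrane receptors whose cytoplasmic part switches off small GTPases and loosens cell adhesion, and the secreted class 3 semaphorins mostly need a neuropilin as the ligand-binding coreceptor. In gut and other adult tissues the family is known for roles in vessels, nerves, epithelial sheets and lymphocytes, and neuropilins also bind vascular endothelial growth factors.

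By their numbers in the labels the samples form 2 ranges of unstated meaning, a low one with 2 TUDCA and 4 vehicle arrays and a high one with 4 TUDCA and 2 vehicle arrays, and every difference below was estimated within these ranges. Values are log2 expression after robust multi-array averaging (RMA) by the authors, so a difference of 1 is a doubling. Array medians lay between 5.90 and 5.95. A free-text field of the labels names CXCL12-abundant reticular cells as the source, whereas the source and tissue fields name small intestine. The mean level of 10 epithelial markers, Cdh17 and Vil1 among them, lay between 10.98 and 11.37 on the arrays, and that of 5 reticular cell markers between 6.42 and 6.76. The means of these 5 ran from 4.55 for Foxc1 to 8.50 for Kitl. Kitl and Cxcl12 (7.71) lay above the third quartile of probe set means, 7.58, and Lepr (6.54) and Ebf3 (5.81) below it. Of the family, 9 members had a mean below the median probe set mean of 5.93 and none lay below the first quartile of 4.59. The table holds no detection calls, so differences of the dim members may be compressed.

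With TUDCA, 6 of the 31 members passed an adjusted p of 0.05 in limma: Sema7a and Plxna2 rose, and Sema6a, Sema4a, Sema6d and Sema4b fell. The share was 19.4% of members, where 2.52% of all 23991 probe sets passed (1.00% higher and 1.52% lower); as the family was taken up for this comparison, nothing is read from that excess. Of all members 12 had a positive and 19 a negative difference, the median being −0.05, beside 0.01 for all probe sets. The groups did not overlap for 4 members (Sema7a, Sema6a, Sema4a and Sema4b), a pattern found in 1.98% of all probe sets. Differences of the other 25 members ran from −0.25 to 0.28.

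**Figure D1:**
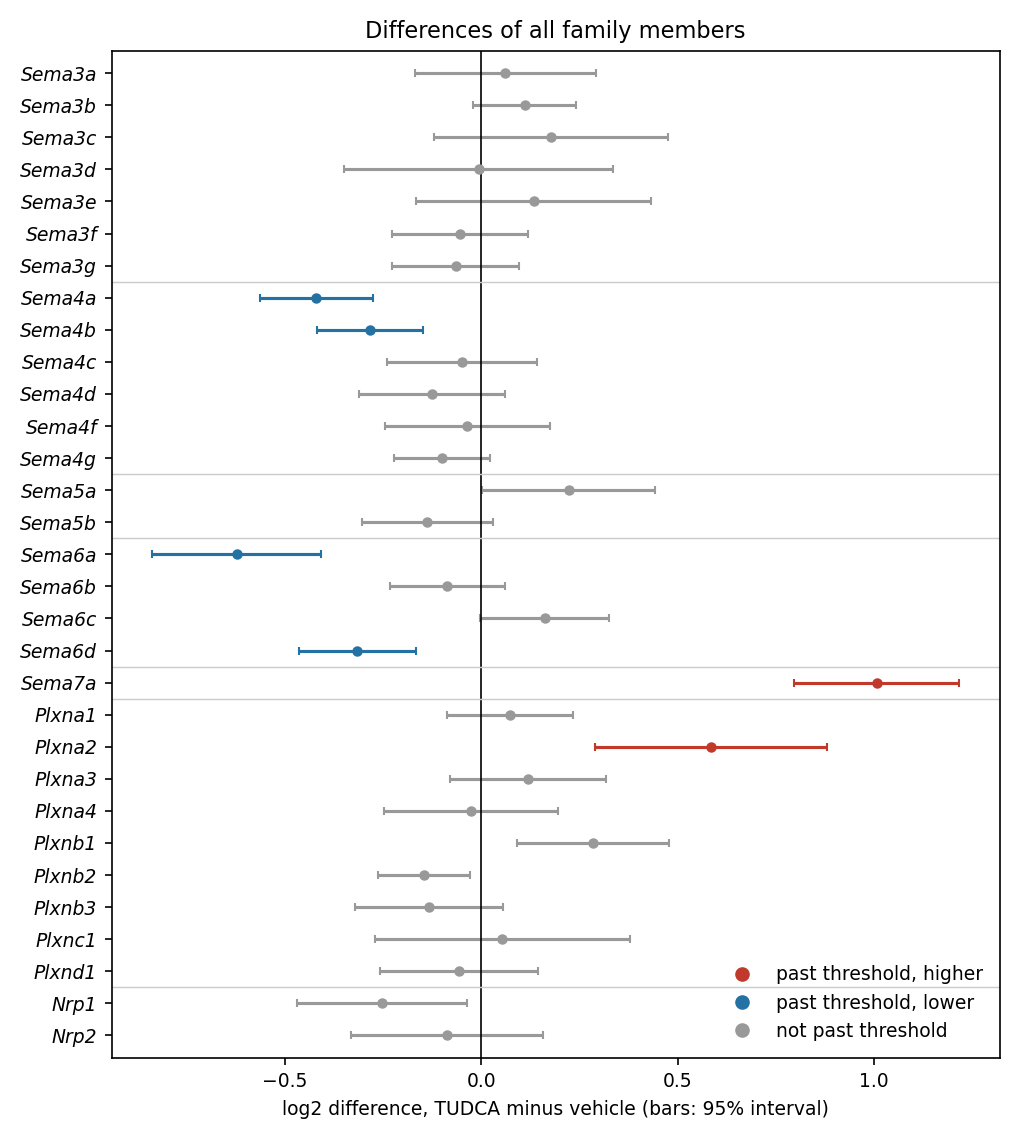
Log2 difference (TUDCA minus vehicle) of each of the 31 members, in order of class from the class 3 semaphorins at the top to the neuropilins at the bottom; points are limma estimates and bars 95% intervals. Sema7a lies farthest to the right at 1.01 and Sema6a farthest to the left at −0.62, and no class 3 semaphorin or neuropilin passed the threshold.

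Sema7a, the only semaphorin held in the membrane by a lipid (GPI) anchor and a ligand of plexin C1 and of beta1 integrins, showed the largest difference of the family. Its log2 values ran from 7.90 to 8.60 with a median of 8.22 in TUDCA mice, and from 7.13 to 7.53 with a median of 7.36 in vehicle mice. The groups were thus separate, with TUDCA replicates 3 and 5 nearest to the vehicle arrays. The rise was 1.01 ± 0.10 (SE) on the log2 scale, a 2.01-fold change (means 8.23 ± 0.30 and 7.33 ± 0.17, SD, n = 6 each; adjusted p = 0.000174 in limma), and 6 of all 23991 probe sets had a smaller p. It was nearly equal in the low and the high number range, at 1.05 and 0.97. The group means take no account of number range, and the fit without that term gave a rise of 0.90 (adjusted p = 0.00148 in limma).

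Sema6a, a transmembrane semaphorin that binds plexins A2 and A4, fell most. Its values ran from 9.75 to 9.93 (median 9.87) in vehicle mice (SD 0.06), and from 9.01 to 9.68 (median 9.19) in TUDCA mice. TUDCA replicate 3, at 9.68, lay closest to the vehicle arrays and the other TUDCA arrays lay at 9.34 or below. Sema6a fell by 0.62 ± 0.10 (SE) on the log2 scale, 1.54-fold lower (adjusted p = 0.00452 in limma), with differences of −0.74 in the low and −0.51 in the high range.

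Sema4a, a class 4 semaphorin of antigen-presenting and T cells that also binds plexin D1, fell by 0.42 ± 0.07 (SE; 1.34-fold lower, adjusted p = 0.0043 in limma). Its values were 9.99 to 10.24 (median 10.18) with TUDCA and 10.42 to 10.76 (median 10.50) with vehicle. Every TUDCA array lay below every vehicle array, and the difference was −0.29 in the low and −0.55 in the high range. Sema4b, a relative of Sema4a that carries a PDZ-binding tail, fell by 0.28 ± 0.06 (SE; 1.22-fold lower, adjusted p = 0.029 in limma), from 8.96 to 9.22 (median 9.06) in vehicle mice to between 8.67 and 8.84 (median 8.82) in TUDCA mice. The groups were again separate, though the gap between the nearest arrays was small.

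Sema6d, a class 6 semaphorin that signals through plexin A1, fell by 0.32 ± 0.07 (SE; 1.24-fold lower, adjusted p = 0.0264 in limma). Its groups overlapped: values were 8.17 to 8.50 (median 8.25) with TUDCA and 8.32 to 8.74 (median 8.52) with vehicle. TUDCA replicate 3 was again the TUDCA array closest to vehicle, and vehicle replicates 5 and 6, both of the high range, were the highest. When number range was dropped from the model, Sema6d lost its call (−0.25, adjusted p = 0.164), as did Plxna2 (0.47, adjusted p = 0.152).

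Plxna2, a class A plexin and receptor of Sema6a, was the receptor that rose, by 0.58 ± 0.14 (SE; 1.5-fold, adjusted p = 0.0376 in limma). Its values spread widely in TUDCA mice, from 8.54 to 9.69 (median 9.11), against 8.49 to 8.78 (median 8.64) in vehicle mice. TUDCA replicates 1 and 2, the arrays of the low range, were the highest, whereas TUDCA replicate 3 lay within the vehicle arrays and TUDCA replicate 6 beside the highest of them. The difference was 0.92 in the low range and 0.25 in the high range; whether the ranges differ was not tested. The call was lost without TUDCA replicate 1 (0.55, adjusted p = 0.144) and without TUDCA replicate 2 (0.45, adjusted p = 0.163), and it held in only 3 of the 12 fits that left out 1 array.

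**Figure D2:**
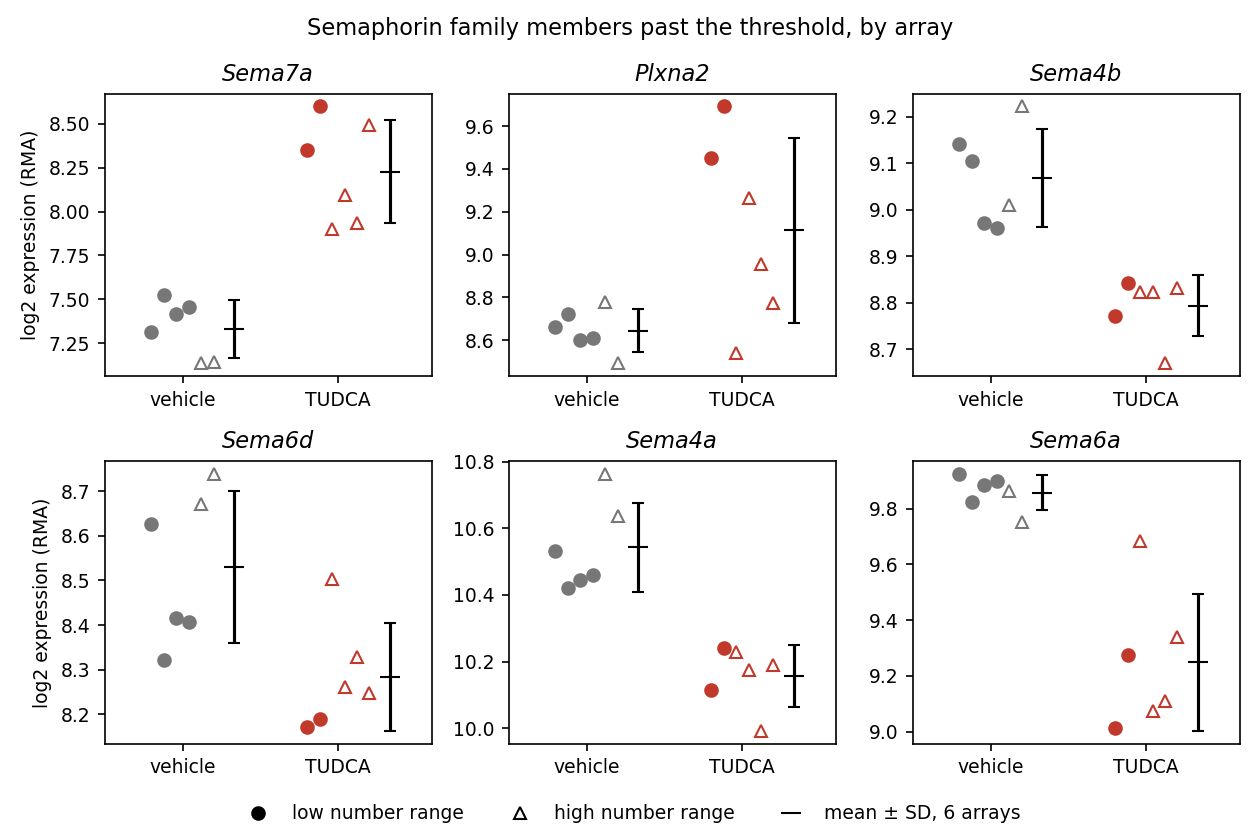
Log2 expression of the 6 members past the threshold on each array; filled circles are arrays of the low and open triangles arrays of the high number range, and bars give the mean ± SD of 6 arrays (the vertical axes differ and do not start at 0). Sema7a, Sema4b, Sema4a and Sema6a show no overlap of the groups, and the TUDCA points of Plxna2 reach from 8.54 to 9.69.

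The calls differed in how firmly they held. Those of Sema7a, Sema6a and Sema4a were kept in all 12 fits with 1 array left out, with adjusted p up to 0.00127, 0.0281 and 0.0204 respectively. Sema4b was kept in 6, being lost without TUDCA replicates 1, 2 or 5 or vehicle replicates 1, 2 or 6, where its adjusted p reached 0.128. Sema6d was kept in 7, being lost without TUDCA replicates 1, 2, 4 or 5 or vehicle replicate 6, where its adjusted p reached 0.104. Plxna2 was also lost without TUDCA replicates 4 or 5 or any 1 of vehicle replicates 1, 2, 3, 4 and 6. The number of members called was 3 without TUDCA replicate 1, 2 or 5 or vehicle replicate 6, each time Sema4a, Sema6a and Sema7a, and it was 4 without TUDCA replicate 4 or vehicle replicate 1 or 2. Calls over all probe sets fell in these fits too. They numbered 241 higher and 364 lower in the reported fit. Without TUDCA replicate 1 they were 91 and 151, without TUDCA replicate 2 they were 107 and 189, and without vehicle replicate 6 they were 147 and 240. In the low range alone, with 2 TUDCA arrays, Sema7a, Sema6a and Plxna2 kept their calls. Sema4a (adjusted p = 0.112 in limma), Sema4b (0.261) and Sema6d (0.282) lost theirs there. In the high range alone, with 2 vehicle arrays, none of the 6 was called (adjusted p from 0.109 to 0.697), while all kept their direction. Of all 23991 probe sets only 6 were called higher and 3 lower in that fit.

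**Figure D3:**
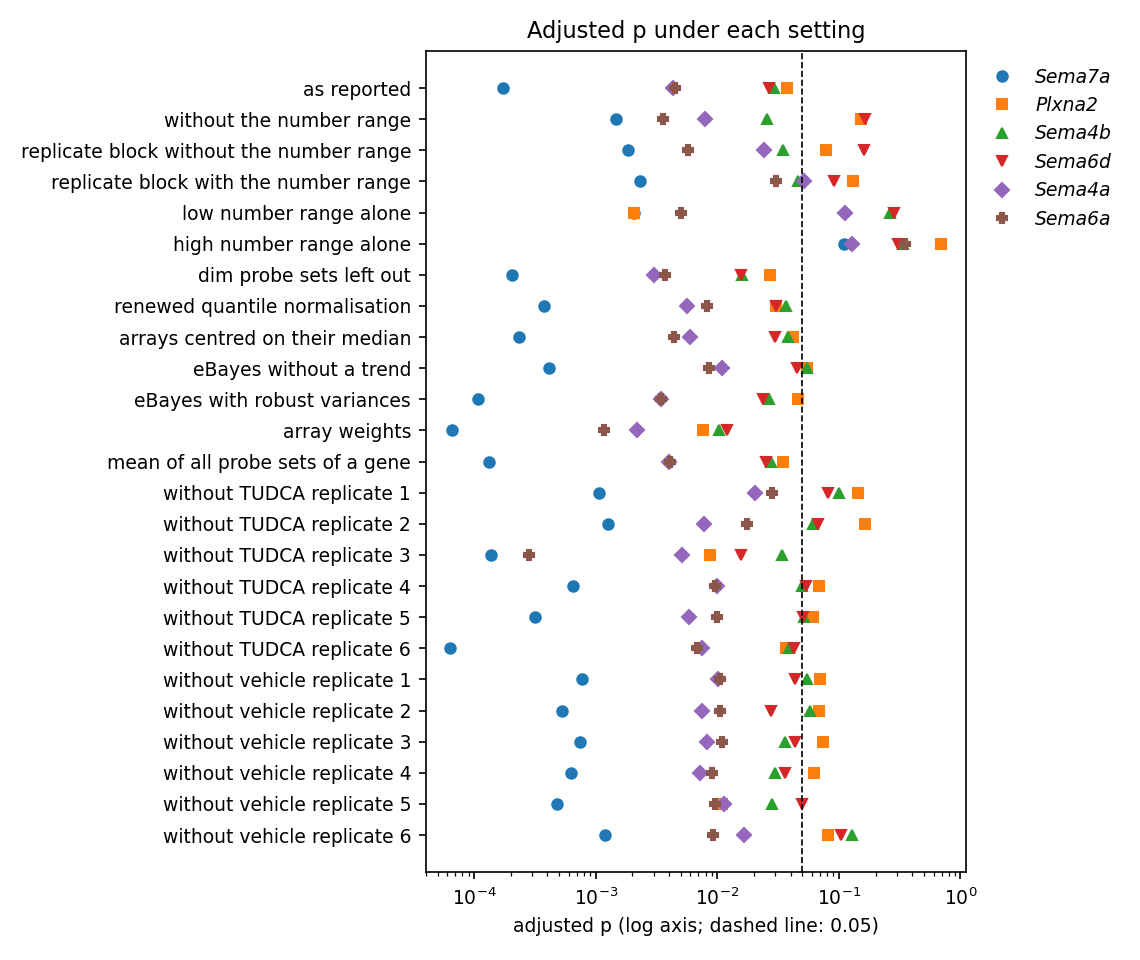
Adjusted p of the 6 called members (symbols) under the reported fit and each alternative (vertical axis), on a log axis with the threshold of 0.05 dashed. Sema7a, Sema6a and Sema4a stay left of the threshold when any 1 array is left out, and in the high number range alone all 6 lie to its right.

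The promoters of the members that changed are shown because these genes moved under 1 treatment. RefSeq promoter windows (build GRCm38.p6) were matched by symbol for 26 of the 31 members, including 5 of the 6 called. The 250 bases upstream of the annotated start are printed 5′ to 3′, taking the window farthest 5′ where a gene has several starts, in lower case with each match to a GC box (GGGCGG, searched on both strands) in capitals.

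Sema7a (GRCm38.p6, chr9:57939862-57940111, plus strand): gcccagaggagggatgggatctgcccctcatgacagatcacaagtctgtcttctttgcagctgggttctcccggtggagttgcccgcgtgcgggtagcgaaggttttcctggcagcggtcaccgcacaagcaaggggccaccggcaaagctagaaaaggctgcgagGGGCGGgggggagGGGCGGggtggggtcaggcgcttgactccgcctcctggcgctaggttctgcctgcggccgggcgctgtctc
Plxna2 (GRCm38.p6, chr1:194619579-194619828, plus strand): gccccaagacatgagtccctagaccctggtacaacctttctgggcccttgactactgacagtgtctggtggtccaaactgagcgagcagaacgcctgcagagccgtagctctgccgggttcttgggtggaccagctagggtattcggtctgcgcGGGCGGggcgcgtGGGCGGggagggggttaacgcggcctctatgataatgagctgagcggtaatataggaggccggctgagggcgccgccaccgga
Sema4a (GRCm38.p6, chr3:88461183-88461432, minus strand): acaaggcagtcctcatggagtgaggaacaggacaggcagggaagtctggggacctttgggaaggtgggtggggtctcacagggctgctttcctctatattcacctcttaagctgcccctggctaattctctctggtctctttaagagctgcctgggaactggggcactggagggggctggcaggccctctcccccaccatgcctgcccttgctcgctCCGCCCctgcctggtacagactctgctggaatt
Sema4b (GRCm38.p6, chr7:80186620-80186869, plus strand): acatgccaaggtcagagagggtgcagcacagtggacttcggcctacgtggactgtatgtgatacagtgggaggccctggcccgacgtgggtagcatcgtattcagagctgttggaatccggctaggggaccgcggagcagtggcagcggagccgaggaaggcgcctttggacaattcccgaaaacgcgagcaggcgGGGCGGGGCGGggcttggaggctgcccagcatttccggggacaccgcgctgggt
Sema6d (GRCm38.p6, chr2:124089719-124089968, plus strand): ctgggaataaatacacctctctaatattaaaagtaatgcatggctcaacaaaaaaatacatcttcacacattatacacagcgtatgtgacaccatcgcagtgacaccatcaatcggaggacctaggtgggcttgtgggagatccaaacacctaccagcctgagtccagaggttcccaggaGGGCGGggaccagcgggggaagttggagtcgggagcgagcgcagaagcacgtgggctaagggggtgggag

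A GC box stood in 8 of the 10 windows of these 5 genes, and in 27 of the 37 windows of all 26 matched members (73.0%), against 32.7% of the 32851 windows in the table. Member windows were also richer in CpG, with a median of 13 CpG dinucleotides against 6 for all windows, and GC boxes are more frequent in such sequence. The windows above hold 17 CpG for Sema7a, 18 for Plxna2, 20 for Sema4b, 9 for Sema6d and 2 for Sema4a. The GAS element TTCNNNGAA, the motif of STAT factors, was found in none of the 37 member windows (7.0% of all windows), nor was TATAAA (12.4% of all windows), and the AP-1 motif TGANTCA stood in 3 (6.7% of all windows), none of them of a called member. Both strands were searched for each, and in the printed windows no motif but the GC box was found; the capitals of Sema4b are 2 GC boxes that overlap. These matches describe letters in short windows only.

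The remaining class 4 semaphorins did not pass, although each of the 6 members of the class had a negative difference in the reported fit (median −0.11). Sema4c and Sema4f turned positive in 2 alternatives each, among them Sema4c in the low range alone (0.00) and Sema4f in the high range alone (0.05). Sema4d, the ligand of plexin B1 on lymphocytes, was at −0.13 ± 0.09 (SE, adjusted p = 0.575) and lay from 6.44 to 6.78 with TUDCA and from 6.66 to 7.11 with vehicle. Sema4g was at −0.10 ± 0.06 (SE), with values of 9.69 to 9.94 and 9.88 to 10.12. Sema4c, a ligand of plexin B2, was at −0.05 ± 0.09 (SE) and Sema4f at −0.04 ± 0.10 (SE). The 95% intervals of these 4 together reach from −0.31 to 0.17. In class 6, Sema6b (−0.09 ± 0.07 SE) and Sema6c (0.16 ± 0.08 SE, adjusted p = 0.365) did not pass either.

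Class 5 semaphorins, transmembrane proteins with thrombospondin repeats, gave no call. Sema5a was at 0.22 ± 0.10 (SE, adjusted p = 0.349), with values of 7.88 to 8.73 (median 8.37) in TUDCA mice and 8.17 to 8.54 (median 8.21) in vehicle mice. Its TUDCA arrays spread on both sides of the vehicle arrays: replicates 1 and 2 were the highest and replicate 6 the lowest of all 12, and without replicate 6 the difference was 0.29 (adjusted p = 0.0674). Sema5b was at −0.14 ± 0.08 (SE, adjusted p = 0.468).

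None of the 7 secreted class 3 semaphorins passed, and their differences were small, from −0.06 to 0.18. Sema3c, a ligand of both neuropilins in developing heart and vessels, was at 0.18 ± 0.14 (SE, 95% interval −0.12 to 0.47), with values of 8.59 to 9.15 and 8.32 to 9.02. Sema3e, which binds plexin D1 without a neuropilin, was at 0.13 ± 0.14 (SE), and Sema3b, a ligand with tumour suppressor properties, at 0.11 ± 0.06 (SE). Sema3a, the classic repellent of sensory axons acting through neuropilin 1, was at 0.06 ± 0.11 (SE), and Sema3f and Sema3g, ligands of neuropilin 2, at −0.05 ± 0.08 (SE) and −0.06 ± 0.08 (SE). Sema3d was at −0.01 ± 0.16 (SE). The 95% intervals of the 7 together reach from −0.35 to 0.47. Sema3c had the widest spread between vehicle mice of all 31 members (SD 0.32, where the median over members was 0.13). Vehicle replicate 5 was the lowest vehicle array for Sema3a, Sema3b, Sema3c, Sema3d and Sema3e.

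Among the other plexins, Plxnb1, the receptor of Sema4d, was at 0.28 ± 0.09 (SE, 95% interval 0.09 to 0.48, adjusted p = 0.137 in limma). It ran from 5.56 to 6.03 (median 5.77) with TUDCA and from 5.29 to 5.90 (median 5.57) with vehicle, with overlapping groups. Plxnb2, an epithelial plexin that binds Sema4c, Sema4d and Sema4g, was at −0.15 ± 0.05 (SE, adjusted p = 0.22), with values of 10.38 to 10.61 (median 10.50) and 10.55 to 10.73 (median 10.65). All 6 TUDCA arrays lay on the lower side of their range's vehicle mean, but the groups overlapped. Plxnb3 was at −0.13 ± 0.09 (SE). Plxna1 and Plxna3, partners of neuropilins, were at 0.07 ± 0.08 (SE) and 0.12 ± 0.09 (SE), and Plxna4 at −0.03 ± 0.10 (SE). Plxnc1, the plexin that binds Sema7a, was at 0.05 ± 0.15 (SE, adjusted p = 0.924), with values from 5.56 to 6.29 and from 5.50 to 6.22, so the rise of the ligand had no counterpart that passed in this receptor. Plxnd1, the endothelial plexin, was at −0.06 ± 0.09 (SE).

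Neither neuropilin passed. Nrp1, the coreceptor of Sema3a and of VEGF-A, was at −0.25 ± 0.10 (SE, 95% interval −0.47 to −0.04, adjusted p = 0.266 in limma), with values of 6.63 to 7.23 (median 7.17) under TUDCA and 7.22 to 7.43 (median 7.32) under vehicle, so that the groups met at their edges. Nrp2, which also serves lymphatic vessels through VEGF-C, was at −0.09 ± 0.11 (SE), with values of 7.68 to 8.52 (median 8.26) and 8.13 to 8.54 (median 8.37). TUDCA replicate 6 was the lowest of the 12 arrays for Nrp1, Nrp2 and Plxnd1. Without this array the differences were −0.18, −0.01 and 0.00. The same array had the lowest mean level of 12 blood endothelial markers, 6.28, where the other arrays lay between 6.55 and 6.95. It was the lowest array for 7 of these 12 markers and for 8 of the 31 members, compared with 13.4% of all probe sets. Besides Nrp1, Nrp2 and Plxnd1 these members were Sema3f, Sema4d, Sema4g, Sema5a and Plxna3. Low levels on this array were not particular to blood endothelium. TUDCA replicate 6 was also lowest for the lymphatic endothelium and fibroblast lists and for every list of other pathway genes described below. In the remaining marker lists a different array was lowest. The part of endothelial content in the neuropilin values was not tested.

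**Figure D4:**
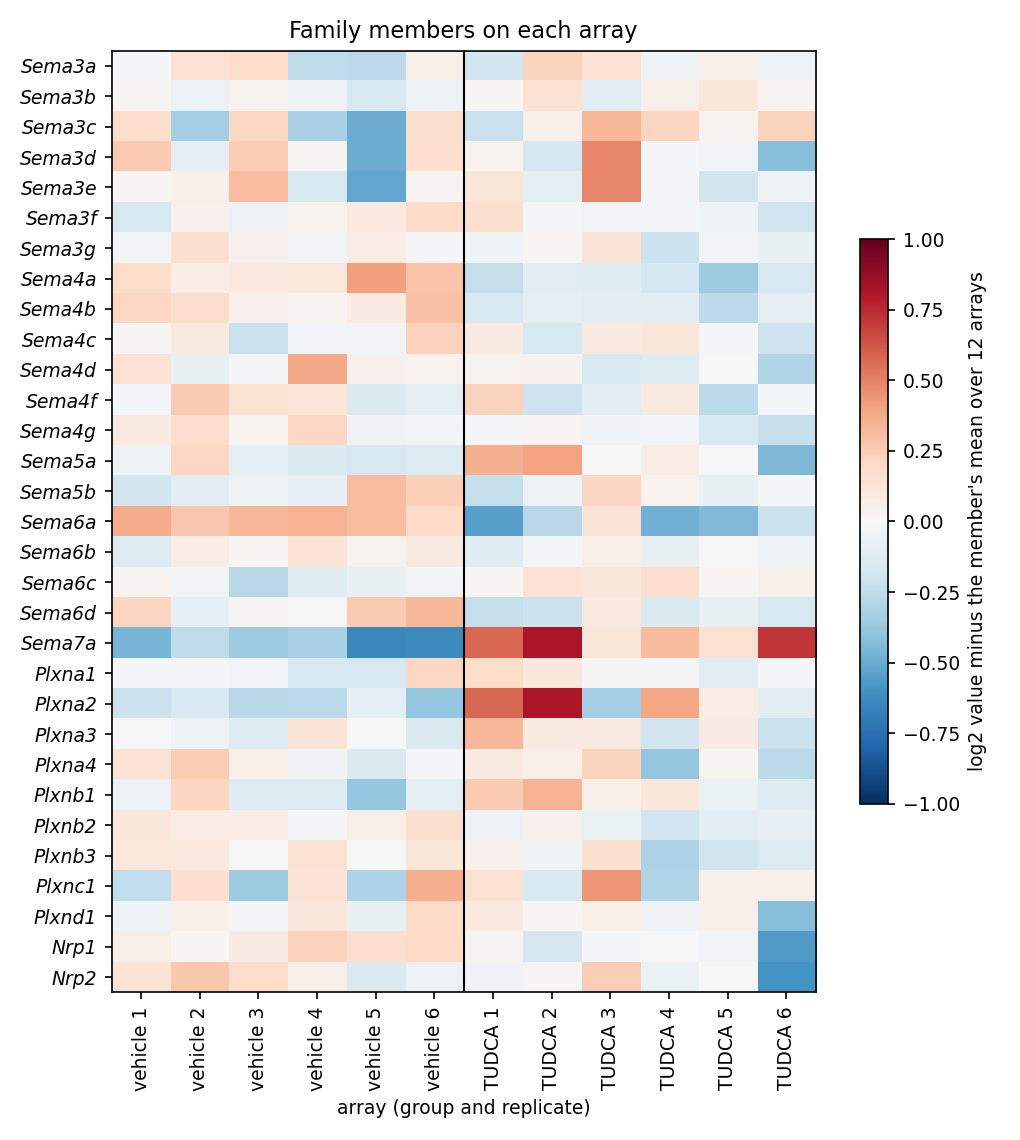
Log2 value of each member on each array minus that member's mean over the 12 arrays (colour, from −1 to 1), with vehicle arrays left and TUDCA arrays right of the line. Sema7a is below its mean on every vehicle array and above it on every TUDCA array, Sema6a shows the reverse except on TUDCA replicate 3 (9.68), Plxna2 is highest on TUDCA replicates 1 and 2, and the bottom rows (Plxnd1, Nrp1 and Nrp2) are lowest on TUDCA replicate 6.

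Known ligand and receptor pairs were set side by side. Of 18 pairs of a semaphorin with a plexin or neuropilin, 1 had both partners past the threshold: Sema6a fell by 0.62 and its receptor Plxna2 rose by 0.58. In 4 further pairs only the ligand was called, Sema4a with Plxnd1, Sema6a with Plxna4, Sema6d with Plxna1 and Sema7a with Plxnc1. The signs of the 2 differences were the same in 9 of the 18 pairs.

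Other genes of the pathway were taken from 4 lists, in which 5 of 84 probe sets passed (5.95%, where 2.52% of all probe sets did). As these lists were chosen with earlier results of these data known, nothing is read from that excess. Among growth factor partners of neuropilins and plexins, 1 of 12 measured genes fell and none rose. It was Erbb2, a receptor tyrosine kinase that associates with plexin B1, at −0.46 ± 0.08 (SE, adjusted p = 0.00712 in limma), with 8.55 to 8.77 under TUDCA and 8.75 to 9.20 under vehicle. Of 27 signal transducers, 2 fell and 1 rose. Farp2, an exchange factor bound to class A plexins, fell by 0.41 ± 0.07 (SE, adjusted p = 0.00905), its groups being separate at 8.11 to 8.39 and 8.49 to 8.83. The actin-oxidising enzymes downstream of plexins went opposite ways: Mical1 fell by 0.44 ± 0.10 (SE, adjusted p = 0.0328) and Mical2 rose by 0.34 ± 0.07 (SE, adjusted p = 0.0172). Of 7 other receptors and coreceptors none passed in limma, with 2 at an unadjusted p under 0.05; among them were the integrin subunits that bind Sema7a, Itga1 (−0.24 ± 0.10 SE, adjusted p = 0.307) and Itgb1 (0.03 ± 0.06 SE, adjusted p = 0.875). Of 38 genes of other guidance families (netrins, Slits, ephrins and their receptors), 1 rose, the ephrin receptor Epha2 at 0.79 ± 0.18 (SE, adjusted p = 0.0295). The call of Erbb2 held with any 1 array left out, that of Farp2 ended without TUDCA replicate 1 (adjusted p = 0.0504), those of Mical2 and Epha2 without TUDCA replicate 1 or 2, and that of Epha2 also without vehicle replicate 5 or 6. Mical1 was lost without TUDCA replicate 1, 2 or 5 or vehicle replicate 1, 2 or 6. Mical2 was also lost when number range was dropped from the model (0.25, adjusted p = 0.189), Epha2 with robust variances (adjusted p = 0.0536), Farp2 and Epha2 in the low range alone (adjusted p = 0.119 and 0.128), and all 5, Erbb2 included, in the high range alone (adjusted p from 0.25 to 0.53).

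Markers of several cell types that can hold these genes moved with treatment. Of 10 T cell markers 4 fell (Cd3e, Cd3g, Cd8a and Cd8b1) and none rose, with a median difference of −0.33 and list levels of 6.04 to 7.0 in TUDCA mice against 6.82 to 7.53 in vehicle mice. Of 12 absorptive enterocyte markers 4 fell (Ace, Apob, Slc15a1 and Dpp4) and none rose (median −0.20, levels of 10.47 to 10.84 against 10.72 to 11.05). Differences were negative for 10 of these 12 and positive for 2, Sis (0.11) and Apoa4 (0.16), which did not pass. In 9 goblet cell markers 4 rose (Agr2, Spdef, Bcas1 and Capn9) and none fell (median 0.28, levels of 10.38 to 10.77 against 9.92 to 10.46). The goblet count fell to 1 without TUDCA replicate 1 or 2 and to 2 without vehicle replicate 6. Of 10 general epithelial markers 1 rose, Krt8 (0.28 ± 0.06 SE), a call lost without TUDCA replicate 1 or 2, and none of 8 crypt stem and Paneth cell probe sets passed (median 0.13). None of 12 blood endothelial markers passed, 11 of them having negative differences (median −0.12, levels of 6.28 to 6.78 against 6.55 to 6.95), and none of 10 macrophage and dendritic cell markers passed, all 10 being negative (median −0.15, levels of 7.10 to 7.59 against 7.47 to 7.77). No marker of lymphatic endothelium, smooth muscle, fibroblasts, enteric neurons, reticular cells or B and plasma cells passed, with medians from −0.11 to 0.05. All 9 smooth muscle probe sets had negative differences (median −0.11, 2 at an unadjusted p under 0.05, levels of 9.60 to 10.08 against 9.48 to 10.23). In the enteric glia list 1 of 5 did, Erbb3, a receptor that epithelial cells also express. In these lists Ms4a1, Elavl4, Foxc1, S100b and 1 of the 2 probe sets of Mmp7 lay below the first quartile of probe set means. Whether changed cell content had a part in the differences of Sema4a, Sema4b, Sema6a, Sema6d, Sema7a or Plxna2 was not tested.

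The number ranges give a comparison other than the one by which the family was chosen. It comes from the same arrays and the same fit, and the ranges differ in their share of TUDCA arrays. The 2 estimates are therefore not independent, and the choice of the family can reach this comparison too. High against low range, with treatment as a term, none of the 31 members passed in limma, and neither did any of the 23991 probe sets (0% called; smallest adjusted p 0.0781). Other fits called a few probe sets, none of them a member: 18 with array weights, 11 without vehicle replicate 5, 3 without TUDCA replicate 4, 2 without vehicle replicate 1 and 2 with dim probe sets left out. At an unadjusted p under 0.05 there were 7 of the 31 members, and 2523 of all 23991 probe sets (10.5%). For the reason given, nothing is read from these counts. In each of the 7 but Sema4g the range difference had the opposite sign to the difference with TUDCA. The members were Sema5b, higher in the high range by 0.28 (adjusted p = 0.218), Sema6d, higher by 0.21, and Sema7a, Sema5a, Plxnb1, Plxna2 and Sema4g, with differences of −0.33, −0.30, −0.26, −0.35 and −0.13. For Sema7a the direction shows within the vehicle mice, where both arrays of the high range (7.13 and 7.14) lay below the 4 of the low range. For Plxna2 the vehicle means were nearly equal, 8.65 in the low and 8.64 in the high range. Its TUDCA means were 9.57 and 8.88.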

How the data were processed

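Expression was measured on Affymetrix arrays, 1 per sample. The authors deposited log2 values per probe set, made with the oligo package and RMA (background correction, quantile normalisation, probe summarisation) per the submitters' processing notes, which give no versions; probe annotation and filters are not given in the sources used here. Of 23991 probe sets 21557 name 1 gene, 787 several and 1647 none. All entered limma 3.58.1 (R 4.3.3; lmFit, eBayes with an intensity trend) with treatment and number range as terms, two-sided, Benjamini-Hochberg over all probe sets, threshold 0.05. The script was tested on simulated data. Precision is limited by the number of arrays. That the samples are separate mice is inferred from their numbers; otherwise p-values measure only the spread between these samples. RMA makes array distributions alike, so a general shift would not be seen. The members and lists were chosen with earlier results of these data known. Every member is named with its difference and SE. Ranges and medians over the arrays are given for the 10 members with the smallest p, and ranges for some others. List levels are means of log2 values over the markers of an array. Alternatives were dropping the number range, a replicate block with and without it, each range alone, leaving out dim probe sets, renewed quantile normalisation, median centring, other eBayes settings, array weights, a mean per gene and leaving out each array. Listed genes without a probe set, and the scanner files, were not analysed here.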

Additional observations from a re-analysis of the deposited data

Results flagged for a closer look

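Among the 62 sets of 6 arrays examined (31 members, each in both groups), 4 had 1 array whose gap to its neighbour took up more of the group's range than Dixon's 95% limit of 0.625 allows; chance gives about 1 in 20. In the TUDCA group the array was replicate 6 in each case: Plxnd1 at 6.46 where the others lay from 6.85 to 6.98 (gap of 0.741 of the range), Nrp1 at 6.63 where the others lay from 7.03 to 7.23 (0.678), and Nrp2 at 7.68 where the others lay from 8.20 to 8.52 (0.627). In the vehicle group it was replicate 2 for Sema5a, at 8.54 with the others from 8.17 to 8.29 (0.683).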

How the results depend on the processing

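Of the 24 alternatives, the call of Sema7a was kept in 23, of Sema6a in 23, of Sema4a in 21, of Sema4b in 15, of Sema6d in 14 and of Plxna2 in 10, and no call changed direction. The members called higher numbered 2 in the reported fit and 1 without the number range, 1 with eBayes without a trend and 0 in the high range alone; leaving out 1 array gave 1 to 2. Those called lower numbered 4 in the reported fit, 1 in the low range alone and 0 in the high range alone, and 2 to 4 with 1 array left out. Over all probe sets, calls numbered 180 higher and 309 lower without the number range, and 177 and 288 with eBayes without a trend. They were 169 and 331 in the low range alone, 6 and 3 in the high range alone, and 85 and 190 with the replicate block and the number range. With the replicate number as a block 1 member was called higher with and without the number range, and 2 were called lower with it (Sema4b and Sema6a). In that fit Sema4a (adjusted p = 0.0518), Sema6d (0.0909), Plxna2 (0.131), Farp2 (0.06), Epha2 (0.0717), Mical2 (0.143) and Mical1 (0.191) lost their calls. Same-numbered arrays correlated in their deviations from −0.06 to 0.26, above 0.1 for 3 of 6 numbers; as the labels give no shared source and not every number was above 0.1, the numbers were not taken as pairs. For 4 of 6 TUDCA arrays the best match was the vehicle array of the same number. Number range was not removed before these correlations. Replicates 2 and 6 lie in the same range in both groups. Replicates 3 and 4 lie in the high range for TUDCA but in the low range for vehicle, so their matches are between arrays of different ranges. Whether the numbers mark pairs was not tested. Of the 25 other members 11 changed sign in at least 1 alternative and none was called in any. No member differed between number ranges in any fit with that term. Dim members may be compressed.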
